A study of Mus musculus with 4 samples.

Results

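The canonical and non-canonical Wnt pathway genes described here are the rows of the deposited gene table whose symbol is a Wnt or Fzd with a number, together with *Lrp5*, *Lrp6*, *Ctnnb1*, *Apc*, *Axin1*, *Axin2*, *Gsk3b*, *Dvl1*, *Dvl2*, *Dvl3*, *Lef1*, *Tcf7*, *Tcf7l1*, *Tcf7l2*, *Dkk3* and *Kremen1*. This rule found 45 of the 23337 genes in the table, namely 19 Wnt ligands, 10 Frizzled receptors and 16 genes acting with or after them. RNA-seq was performed on medullary thymic epithelial cells (mTECs), sorted as CD45- EpCAM+ UEA-1+ Ly51- from thymi of C57BL/6 mice at 4 weeks of age. The WT group (genotype wild type) and the *Sirt6* cKO group (genotype label *Sirt6*-/-) held 2 libraries each. In the cKO mice, floxed *Sirt6*, which encodes a nuclear NAD+-dependent deacylase, was deleted with a Cre driven by *Foxn1*, which directs the deletion to thymic epithelium, and the controls carried no *Foxn1*-Cre. How many mice gave each library is not given in the sources used here, and p-values measure only the spread between these 4 libraries.

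Wnt proteins are secreted lipid-modified ligands that bind Frizzled receptors, alone or with the co-receptors LRP5 and LRP6. In the canonical branch, Dishevelled proteins then block the destruction complex of AXIN, APC and GSK3, β-catenin accumulates, and TCF and LEF factors at target genes switch from repression to activation. In the thymus, Wnt ligands from epithelium act on the epithelium itself, where they are known to support *Foxn1*, and on developing thymocytes, which depend on *Tcf7* and *Lef1*.

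Where 4 values are given, library 1 precedes library 2 of its group. *Sirt6* itself had 622 and 755 counts in WT against 882 and 835 under the *Sirt6* cKO label. Both libraries labelled *Sirt6* cKO were therefore above both WT libraries. The log2 fold change was 0.37 (SE 0.32, adjusted p = 0.80 by edgeR) and did not pass the test. Groups without overlap were also found for 41.9% of all genes tested, so this order of libraries does not set *Sirt6* apart. The counts showed no lower level of the targeted gene, and its deletion was not tested. Counts per gene do not show whether the floxed exons were read, and every difference below is between the libraries as labelled. The deposited counts summed to between 61102704 and 65907745 per library. All 13 mTEC and TEC identity markers, such as *Epcam* and *Aire*, were detected in all libraries. At an unadjusted p under 0.05 by edgeR, 4 of 13 were called higher under the *Sirt6* cKO label (30.8%, beside 5.27% of all genes tested). Their summed level was 22069 to 24140 TPM (transcript abundance per length and library), of which *H2-Aa*, an MHC class II gene that dendritic cells and B cells also express, supplied 14864 to 16768 TPM. *Epcam* alone had 49643 and 49078 counts in WT against 60549 and 72374 under the *Sirt6* cKO label. Markers of other cells were present too, and summed to 6686 to 11145 TPM in WT and 4179 to 4471 TPM in the libraries labelled *Sirt6* cKO for macrophages and dendritic cells. *Lyz2* alone supplied most of this, with 9532 and 5941 TPM in WT and 3664 and 3955 TPM under the *Sirt6* cKO label. Of the 11 markers tested, 8 had a negative and 3 a positive log2 fold change, and 4 were called lower (36.4%, beside 3.32% of all genes tested). Markers of *Ccl21a*-positive mTECs, a subset within the sort, summed to 1583 and 3535 TPM in WT and to 674 and 798 TPM under the *Sirt6* cKO label. *Ccl21a* itself supplied 1258 and 3154 TPM of these sums in WT and 346 and 497 TPM under that label. Of the 7 markers, 2 were called lower (28.6%, beside the same 3.32%), but 4 had a positive and 3 a negative log2 fold change, with a median of 0.075. The part of these cells in the results for the members was not tested. In such bulk samples, fewer cells of a type and less RNA per cell cannot be told apart.

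The members were read from an edgeR quasi-likelihood fit over all genes. Of the 45 members, 44 passed the filter on low counts and were tested. At an unadjusted p under 0.05, 3 members were called, all of them higher in the libraries labelled *Sirt6* cKO: the receptors *Fzd5* and *Fzd7* and the ligand *Wnt9b*. Over all 18547 genes tested, 8.58% were called at this threshold, 5.27% higher and 3.32% lower, so the 6.82% of members called did not exceed the background. That split of 977 higher and 615 lower genes depended on the scaling, and became 751 and 800 under upper quartile normalization and 721 and 838 under library size alone. After Benjamini-Hochberg adjustment over all genes, no member passed 0.05 with edgeR or with DESeq2, where the background was 0.00539% and 1.83%. The median log2 fold change of the tested members was -0.035, beside -0.0047 for all genes tested, and 21 members had a positive and 23 a negative value. The CPM values (counts scaled to library size after TMM normalization) of the groups did not overlap for 18 members, 9 higher and 9 lower, or 40.9% of the members against 41.9% of all genes tested (21.6% higher and 20.3% lower). A two-sided exact permutation test on 1 gene in 2 and 2 libraries could not reach less than p = 0.33.

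**Figure D1:**
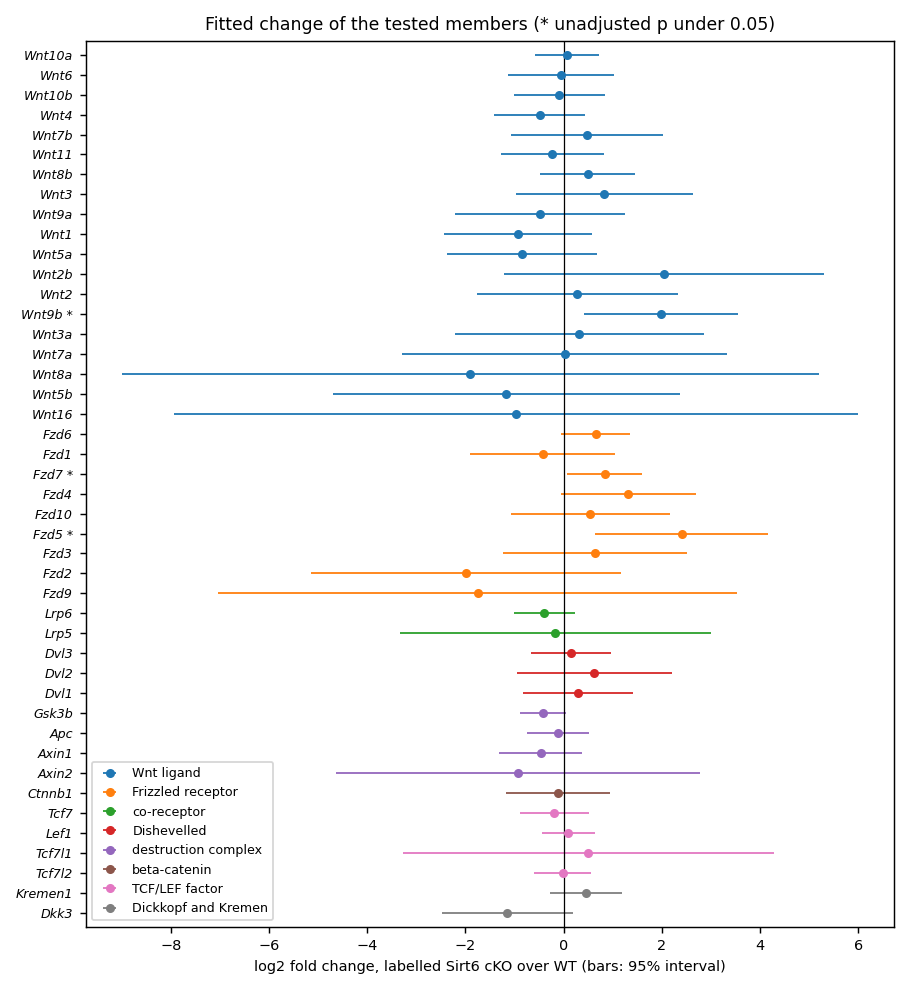
Fitted log2 fold change of the 44 tested members, libraries labelled *Sirt6* cKO over WT, with 95% intervals (horizontal axis), ordered by role and then by mean TPM and coloured by role. An asterisk marks the 3 members with an unadjusted p under 0.05 by edgeR (*Wnt9b*, *Fzd7* and *Fzd5*), whose intervals lie above 0, while the widest intervals belong to *Wnt8a*, *Wnt16* and *Fzd9*, each with a count of 0 in at least 1 library.

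The Frizzled receptors held 2 of the 3 called members, which is 22.2% of the 9 tested receptors, beside 8.58% of all genes tested. Neither of these 2 passed the adjusted threshold. *Fzd5*, a receptor of canonical signals in several epithelia, had 96 and 44 counts in WT, beside 429 and 280 in libraries labelled *Sirt6* cKO. Both libraries labelled *Sirt6* cKO were above both WT libraries by more than the WT libraries differed. WT averaged 1.08 ± 0.548 CPM (SD, n = 2) and the libraries labelled *Sirt6* cKO 5.74 ± 1.94 CPM (SD, n = 2), and the log2 fold change was 2.41 (SE 0.70, adjusted p = 0.54 by edgeR). Without *Sirt6* cKO 1, *Fzd5* no longer passed the unadjusted threshold. *Fzd5* lies on the minus strand at chr1:64730558-64737751 (GRCm38), and its exons share 1233 bases with those of *Gm38058* on the opposite strand, so that reads of the 2 genes could not be told apart if strand was not used in counting.

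*Fzd7*, a receptor expressed in many epithelial progenitors, had counts of 885 and 668 (WT) and of 1355 and 1308 (labelled *Sirt6* cKO). The libraries of each group lay close together and the groups did not overlap. The log2 fold change was 0.83 (SE 0.31, adjusted p = 0.55 by edgeR), from 12.0 ± 2.14 CPM (SD, n = 2) for WT to 21.4 ± 1.45 CPM (SD, n = 2) for the libraries labelled *Sirt6* cKO. This gene has a single exon, at chr1:59482424-59486955 on the plus strand. Its call was lost under upper quartile normalization, under scaling by library size alone, with the replicate number as a block and when any library other than WT 1 was left out.

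*Wnt9b*, a canonical ligand known from kidney and facial development, had 78 and 74 counts in WT against 240 and 344 under the *Sirt6* cKO label. The WT libraries were nearly equal, and both others were above them. WT averaged 1.18 ± 0.0204 CPM (SD, n = 2) and the libraries labelled *Sirt6* cKO averaged 4.67 ± 0.981 CPM (SD, n = 2), with a log2 fold change of 1.99 (SE 0.63, adjusted p = 0.54 by edgeR). The value stayed between 1.72 and 2.19 when single libraries were left out, and the call was lost without *Sirt6* cKO 1 and without *Sirt6* cKO 2. *Wnt9b* lies on the minus strand at chr11:103727364-103749821, and the nearest member, *Wnt3*, lies 24328 bases away on the other strand. *Wnt3* ranged from 1.19 to 5.64 TPM, with WT 2 alone at the low end, and its log2 fold change was 0.83 (SE 0.72, adjusted p = 0.80 by edgeR).

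The promoters of these 3 called members are shown because they share one feature that the counts did not use, a high density of CpG dinucleotides. Each sequence runs from 250 bases before to 50 bases after the RefSeq transcription start, 5′ to 3′ along the gene's strand in GRCm38.p6, with CpG dinucleotides in capitals, at chr1:64737701-64738000 (minus strand) for *Fzd5*, chr1:59481897-59482196 (plus strand) for *Fzd7* and chr11:103749772-103750071 (minus strand) for *Wnt9b*.
Fzd5: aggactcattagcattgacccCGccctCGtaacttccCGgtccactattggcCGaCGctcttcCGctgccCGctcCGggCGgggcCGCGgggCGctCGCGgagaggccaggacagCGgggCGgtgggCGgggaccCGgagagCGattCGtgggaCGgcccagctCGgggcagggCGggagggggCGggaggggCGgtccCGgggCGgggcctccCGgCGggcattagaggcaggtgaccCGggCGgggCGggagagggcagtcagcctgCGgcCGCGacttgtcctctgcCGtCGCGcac
Fzd7: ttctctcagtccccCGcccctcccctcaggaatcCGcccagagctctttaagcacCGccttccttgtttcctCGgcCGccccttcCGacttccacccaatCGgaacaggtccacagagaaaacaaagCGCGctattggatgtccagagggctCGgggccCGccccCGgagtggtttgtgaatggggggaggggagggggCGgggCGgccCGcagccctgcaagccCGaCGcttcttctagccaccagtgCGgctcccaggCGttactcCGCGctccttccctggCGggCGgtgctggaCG
Wnt9b: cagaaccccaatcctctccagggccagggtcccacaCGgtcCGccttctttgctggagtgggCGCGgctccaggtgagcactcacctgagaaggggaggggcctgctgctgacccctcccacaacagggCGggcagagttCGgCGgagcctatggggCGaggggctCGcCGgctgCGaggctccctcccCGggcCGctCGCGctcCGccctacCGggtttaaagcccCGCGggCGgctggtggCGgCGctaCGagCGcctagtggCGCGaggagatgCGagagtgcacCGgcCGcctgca
They held 38, 24 and 29 CpG dinucleotides, and 4.95%, 20.0% and 12.9% of all promoters in the table held as many or more. High CpG content was general among the members, however. The 40 promoters of the 31 members found in the table had a median of 29.5 CpG dinucleotides, beside 7 over all 32851 promoters of the same length. The TCF/LEF core motif, searched as CTTTGAT or CTTTGAA on both strands, occurred in 2 of the 40 member promoters (*Wnt11* and *Wnt5b*) and in 8.65% of all promoters, and in none of the 3 shown.

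The remaining Frizzled genes spanned a wide range of levels. *Fzd6*, which is known mainly from planar cell polarity, held between 54.5% and 66.6% of the summed Frizzled TPM in every library. It had counts of 4220 and 2995 (WT) and of 4472 and 6552 (labelled *Sirt6* cKO). After normalization the groups did not overlap, but WT 1 and *Sirt6* cKO 1 were near each other, at 34.3 and 39.5 TPM. The log2 fold change of *Fzd6* was 0.66 (95% interval -0.04 to 1.36), and DESeq2 placed it past the unadjusted threshold (adjusted p = 0.41), where 4 members and 10.2% of all genes were called. *Fzd1*, next in level, had 1074 and 1325 counts in WT, beside 390 and 1359 in libraries labelled *Sirt6* cKO. *Sirt6* cKO 1 alone was low, and the log2 fold change of -0.43 (SE 0.59) became 0.19 without it. The largest fitted decrease belonged to *Fzd2*, with 86 and 100 counts in WT, beside 8 and 38 in libraries labelled *Sirt6* cKO. Both libraries labelled *Sirt6* cKO were lower and differed 4.47-fold from each other, and the log2 fold change of -1.99 (SE 1.26) did not pass the test (adjusted p = 0.72 by edgeR). Leaving out *Sirt6* cKO 2 moved it to -3.46, and leaving out *Sirt6* cKO 1 to -1.28.

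*Fzd4*, the receptor of Norrin as well as of Wnt ligands, ranged from 1.22 to 4.48 TPM without overlap between groups, with a log2 fold change of 1.32 (95% interval -0.05 to 2.70). *Fzd10* and *Fzd3* overlapped between groups, at log2 fold changes of 0.54 and 0.64. *Fzd9* was at 0 in *Sirt6* cKO 1 and reached at most 0.828 TPM, and its log2 fold change of -1.75 had an SE of 2.1. *Fzd8*, with 8 counts in WT 1 and 0 in the other 3 libraries, was the only member that did not pass the filter, and a count of 0 allows up to 3 counts. In the order of mean level, *Fzd6*, *Fzd1*, *Fzd7*, *Fzd4*, *Fzd10*, *Fzd5*, *Fzd3*, *Fzd2*, *Fzd9* and *Fzd8*, the ranges of neighbours over the 4 libraries overlapped in 7 of 9 pairs. Only *Fzd6* was apart from *Fzd1* and *Fzd7* from *Fzd4*. Of the 9 tested receptors, 6 had a positive and 3 a negative log2 fold change, with a median of 0.64.

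**Figure D2:**
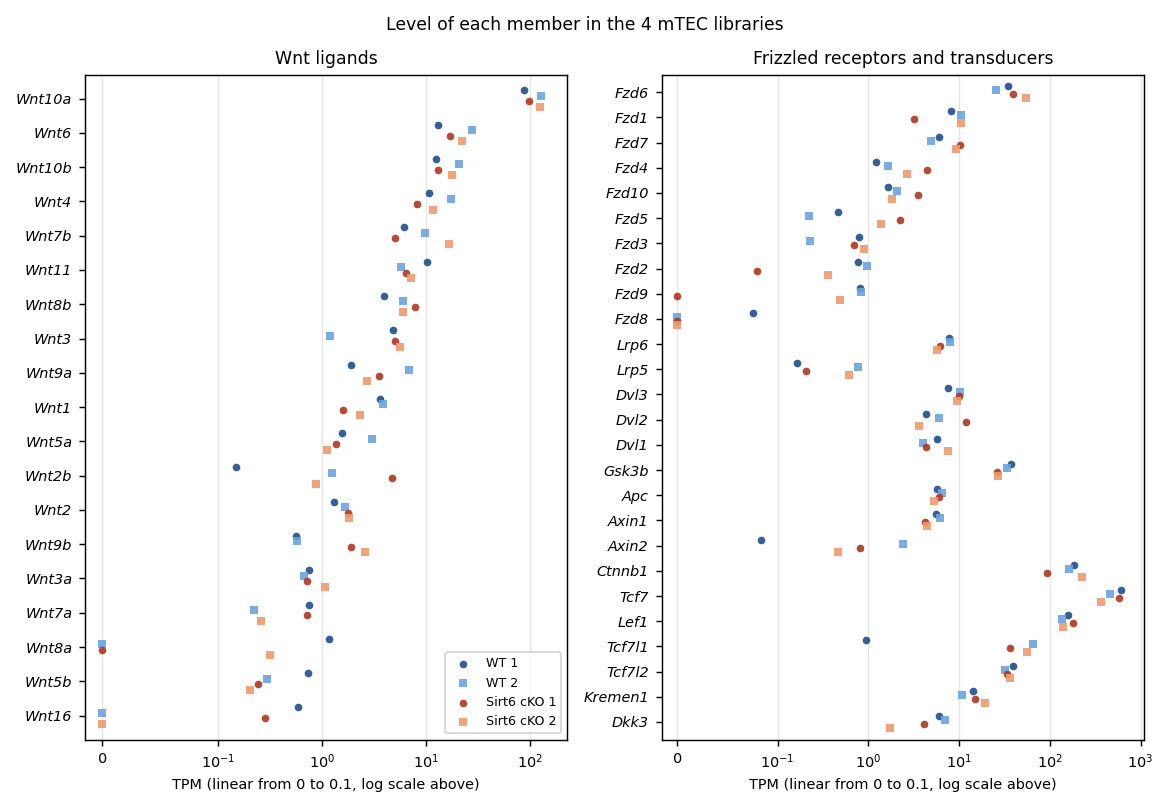
Level of each of the 45 members in the 4 mTEC libraries in TPM (horizontal axis, linear from 0 to 0.1 and logarithmic above), with ligands on the left and receptors and transducers on the right, ordered within each role by mean level. Each point is 1 library, dark and light blue for WT and dark and light red for *Sirt6* cKO as labelled, and *Wnt10a*, *Fzd6* and *Tcf7* stand highest in their roles while WT 1 lies far to the left for *Tcf7l1*, *Axin2* and *Wnt2b*.

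Among the ligands, *Wnt10a* dominated. It had 5256 and 7155 counts in WT, beside 5345 and 7260 in libraries labelled *Sirt6* cKO, and it supplied between 54.3% and 55.7% of the summed ligand TPM in all libraries. WT 2 and *Sirt6* cKO 2 were alike and above the other two, so the groups overlapped fully, and the log2 fold change was 0.07 (95% interval -0.58 to 0.72, adjusted p = 0.97 by edgeR). *Wnt10a* signals through the canonical branch and is best known from ectodermal organs such as teeth, hair and sweat glands. *Wnt6*, 6193 bases from *Wnt10a* on the same strand of chromosome 1, had counts of 822 and 1654 (WT) and of 983 and 1343 (labelled *Sirt6* cKO). WT 1 was lowest and WT 2 highest for *Wnt6*, with both other libraries between them, and its log2 fold change was -0.05 (95% interval -1.14 to 1.03). *Wnt10b*, a close relative of *Wnt10a*, followed with counts of 843 and 1311 (WT) and of 815 and 1158 (labelled *Sirt6* cKO). The groups overlapped, and the log2 fold change was -0.09 (95% interval -1.02 to 0.85). The 3 most abundant ligands thus had their higher values in the libraries numbered 2 of both groups. The sample labels number the libraries within each group and do not say whether those of the same number were paired.

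*Wnt4*, a thymic epithelial ligand linked to *Foxn1* expression, ranged from 8.27 to 17.5 TPM with a log2 fold change of -0.48 (SE 0.37, adjusted p = 0.77 by edgeR). WT 2 was highest and *Sirt6* cKO 1 lowest for this gene. *Foxn1* itself was higher, with 8984 and 10545 counts in WT against 17098 and 16415 under the *Sirt6* cKO label. Its log2 fold change was 0.83 (SE 0.18), with an adjusted p of 0.54 by edgeR and 0.031 by DESeq2. A link between *Wnt4* and *Foxn1* was not tested. *Wnt5a* and *Wnt5b*, which act mainly through non-canonical branches, had log2 fold changes of -0.85 (SE 0.61) and -1.16 (SE 1.41). Neither passed the test (adjusted p = 0.75 and 0.88 by edgeR), although the groups did not overlap and WT was above. *Wnt1*, a canonical ligand of the developing midbrain, was at 3.65 and 3.83 TPM in WT and at 1.59 and 2.33 TPM in the libraries labelled *Sirt6* cKO. Its log2 fold change of -0.92 (SE 0.60, adjusted p = 0.72 by edgeR) did not pass the test either. *Wnt8b* and *Wnt2* were higher without overlap, at log2 fold changes of 0.49 and 0.28 (adjusted p = 0.78 and 0.96 by edgeR). For *Wnt8b*, however, WT 2 and *Sirt6* cKO 2 were nearly equal, at 5.97 and 5.98 TPM.

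The ligands with the largest fitted increase and decrease were unstable between libraries. *Wnt2b*, the largest increase, had 16 and 127 counts in WT against 474 and 93 under the *Sirt6* cKO label. Its groups overlapped, its libraries differed 8.16-fold within WT, and the log2 fold change of 2.05 had an SE of 1.3 (adjusted p = 0.72 by edgeR). *Wnt8a*, the largest decrease, had 54 and 0 counts in WT and 0 and 14 under the *Sirt6* cKO label. One library of each group was at 0, and the log2 fold change of -1.90 had an SE of 2.82. *Wnt16* was at 0 in WT 2 and in *Sirt6* cKO 2 and reached at most 0.595 TPM. The remaining ligands *Wnt7b*, *Wnt11*, *Wnt9a*, *Wnt3a* and *Wnt7a* had overlapping groups and log2 fold changes of 0.47, -0.23, -0.48, 0.32 and 0.02. From the top of the order of mean level, *Wnt10a* and *Wnt6* were apart, and the other 17 pairs of neighbours overlapped in their ranges over the 4 libraries. Of the 19 ligands, 1 was called (5.26%), which is below the background of 8.58%.

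The co-receptors differed in level. *Lrp6*, the main co-receptor of canonical signaling, had 2177 and 2139 counts in WT, beside 1586 and 1573 in libraries labelled *Sirt6* cKO. The libraries of each group were nearly equal and those labelled *Sirt6* cKO were lower, but the log2 fold change of -0.40 (SE 0.25) did not pass the test (adjusted p = 0.71 by edgeR). *Lrp5*, the related co-receptor, had counts of 26 and 115 (WT) and of 30 and 94 (labelled *Sirt6* cKO). Both groups held a low and a high library, and the log2 fold change was -0.17 (SE 1.26). The Dishevelled genes, whose products carry the signal from the receptor into the cytoplasm, had log2 fold changes of 0.30 (SE 0.45) for *Dvl1*, 0.62 (SE 0.63) for *Dvl2* and 0.15 (SE 0.32) for *Dvl3*. None passed the test. *Dvl2* had 382 and 502 counts in WT against 980 and 314 under the *Sirt6* cKO label, and its log2 fold change was -0.49 without *Sirt6* cKO 1. *Dvl1* had 572 and 379 counts in WT and 400 and 732 under the *Sirt6* cKO label, and *Dvl3* had 670 and 863 counts in WT against 811 and 830 under the *Sirt6* cKO label. The groups overlapped for all 3 Dishevelled genes.

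All 4 genes of the destruction complex, which marks β-catenin for degradation, had negative log2 fold changes, and none passed the test. *Gsk3b*, a kinase of the complex, had 9376 and 8084 counts in WT, beside 5982 and 6600 in libraries labelled *Sirt6* cKO. Both libraries labelled *Sirt6* cKO were lower, at 26.6 ± 0.831 TPM (SD, n = 2) against 35.8 ± 2.32 TPM (SD, n = 2) in WT. The log2 fold change of -0.42 (95% interval -0.88 to 0.04) did not pass the unadjusted threshold, but passed it under upper quartile normalization and under scaling by library size alone. *Axin1*, a scaffold of the complex, was also lower without overlap, with 639 and 659 counts in WT, beside 433 and 474 in libraries labelled *Sirt6* cKO, at a log2 fold change of -0.47 (SE 0.34, adjusted p = 0.75 by edgeR). *Apc*, the other scaffold, had 2142 and 2313 counts in WT, beside 2052 and 1919 in libraries labelled *Sirt6* cKO and overlapped between groups, at -0.11 (SE 0.25). *Axin2*, both a scaffold and a widely used target gene of canonical signaling, had counts of 11 and 293 (WT) and of 96 and 58 (labelled *Sirt6* cKO). The WT libraries of *Axin2* differed 27.4-fold and enclosed both others. Its log2 fold change of -0.93 (SE 1.47) went from 2.88 without WT 2 to -1.91 without WT 1, so these libraries give no direction for it.

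*Ctnnb1*, which encodes β-catenin, the transducer of the canonical branch and a part of adherens junctions, had 20442 and 16843 counts in WT against 9291 and 24178 under the *Sirt6* cKO label. *Sirt6* cKO 1 was lowest and *Sirt6* cKO 2 highest, with both WT libraries between them. The log2 fold change was -0.12 (SE 0.42, adjusted p = 0.96 by edgeR). Without *Sirt6* cKO 2 it was -0.94 and passed the unadjusted threshold, and without *Sirt6* cKO 1 it was 0.39. Its exons share 759 bases with those of *Ulk4* on the opposite strand, and such overlaps with a gene on the other strand were found for *Axin2*, *Dvl1*, *Dvl2*, *Fzd6*, *Lef1*, *Tcf7l1*, *Wnt7b*, *Wnt11* and *Wnt5a*, between 36 and 1208 bases.

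Of the TCF and LEF factors, which bind DNA and recruit β-catenin, *Tcf7* supplied between 61% and 75.2% of the summed TPM. It had 41052 and 29571 counts in WT, beside 35592 and 23709 in libraries labelled *Sirt6* cKO. The groups overlapped, and the log2 fold change was -0.19 (95% interval -0.89 to 0.52, adjusted p = 0.90 by edgeR). *Lef1* had counts of 11884 and 9634 (WT) and of 12159 and 9968 (labelled *Sirt6* cKO), with both groups spanning about the same range and a log2 fold change of 0.10 (95% interval -0.44 to 0.64). Both genes are strongly expressed in T cell precursors, and the sort excluded CD45+ cells. The 18 thymocyte markers summed to 2408 and 1763 TPM in WT and to 1953 and 1295 TPM under the *Sirt6* cKO label. None of them was at 0 in any library, and 1 of 18 was called, lower (5.56%, beside 3.32% of all genes tested). *Tcf7* was at 608 and 463 TPM in WT and at 574 and 362 TPM under that label, which is the same order over the libraries, and amounted to 25.2% to 29.4% of the marker sum. *Lef1* amounted to 6.65% to 10.7% of that sum and did not follow its order, being highest in *Sirt6* cKO 1. The part of thymocyte RNA in the level of *Tcf7* and *Lef1* was not tested.

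**Figure D3:**
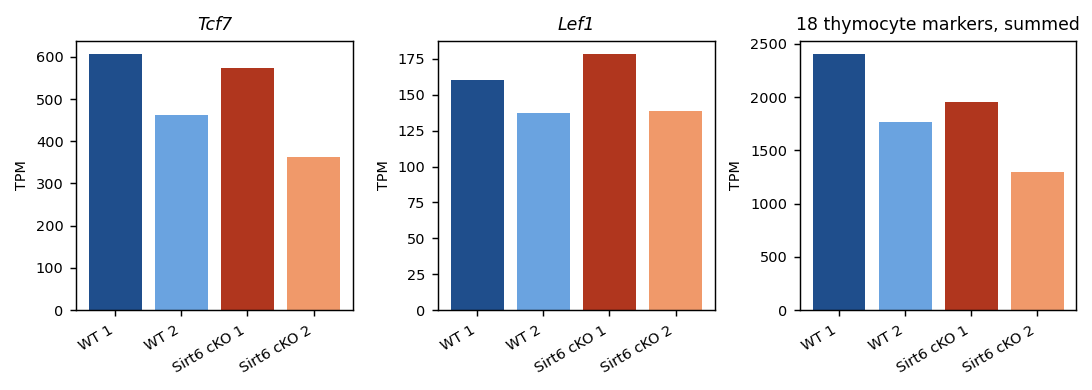
TPM of *Tcf7*, of *Lef1* and of the 18 thymocyte markers summed (vertical axes from 0) in each of the 4 libraries, 1 bar per library. *Tcf7* and the marker sum share the order WT 1, *Sirt6* cKO 1, WT 2, *Sirt6* cKO 2 from high to low, whereas *Lef1* is highest in *Sirt6* cKO 1.

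*Tcf7l1*, a factor that acts mainly as a repressor and is known from epithelial stem cells, had counts of 79 and 5206 (WT) and of 2824 and 4569 (labelled *Sirt6* cKO). WT 1 alone was low, 67.8-fold below WT 2, whereas the other 3 libraries were at 36.6 to 65.5 TPM. Of 9558 genes with a mean of at least 10 TPM, 9 (0.0942%) differed as much between the WT libraries. The log2 fold change of *Tcf7l1* was 0.51 (SE 1.5, adjusted p = 0.96 by edgeR), and it was -0.49 without WT 1 and 5.61 without WT 2. *Tcf7l2*, its close relative, had 4881 and 3705 counts in WT against 3767 and 4397 under the *Sirt6* cKO label. The groups overlapped, and the log2 fold change of -0.02 had a 95% interval of -0.60 to 0.56. In mean level *Tcf7* was apart from *Lef1* and *Lef1* from *Tcf7l1*, while the ranges of *Tcf7l1* and *Tcf7l2* overlapped.

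*Dkk3*, a secreted Dickkopf-family protein whose action on Wnt signaling differs between settings, had 614 and 675 counts in WT against 384 and 172 under the *Sirt6* cKO label. Both libraries labelled *Sirt6* cKO were lower, with the lower value in *Sirt6* cKO 2, and the log2 fold change was -1.14 (95% interval -2.47 to 0.18). Without *Sirt6* cKO 1 the value of *Dkk3* was -1.90 and passed the unadjusted threshold, and without *Sirt6* cKO 2 it was -0.68. *Kremen1*, a Dickkopf receptor that removes LRP6 from the cell surface and is known to shape thymic epithelium, had 2133 and 1527 counts in WT, beside 2052 and 2783 in libraries labelled *Sirt6* cKO. WT 1 and *Sirt6* cKO 1 were close, the groups did not overlap after normalization, and the log2 fold change was 0.45 (SE 0.29, adjusted p = 0.72 by edgeR).

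The spread between libraries of 1 group set the precision of these values. For 27 of the 44 tested members, the WT libraries lay farther apart in log2 CPM than the group means. The same count over all genes is not given here, so this number is not set against a background. The WT libraries differed more than 2-fold for 13 members (29.5%) and the libraries labelled *Sirt6* cKO for 12 (27.3%), beside 25% and 22.1% of all genes. More than 4-fold differences were found for 15.9% of members in WT and 11.4% in the libraries labelled *Sirt6* cKO, beside 11.6% and 9.09% of all genes. The members that stood apart did so in different libraries. WT 1 was low for *Tcf7l1*, *Axin2* and *Wnt2b*, WT 2 for *Wnt3* and *Fzd3*, and *Sirt6* cKO 1 for *Ctnnb1*, *Fzd1* and *Fzd2*.

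**Figure D4:**
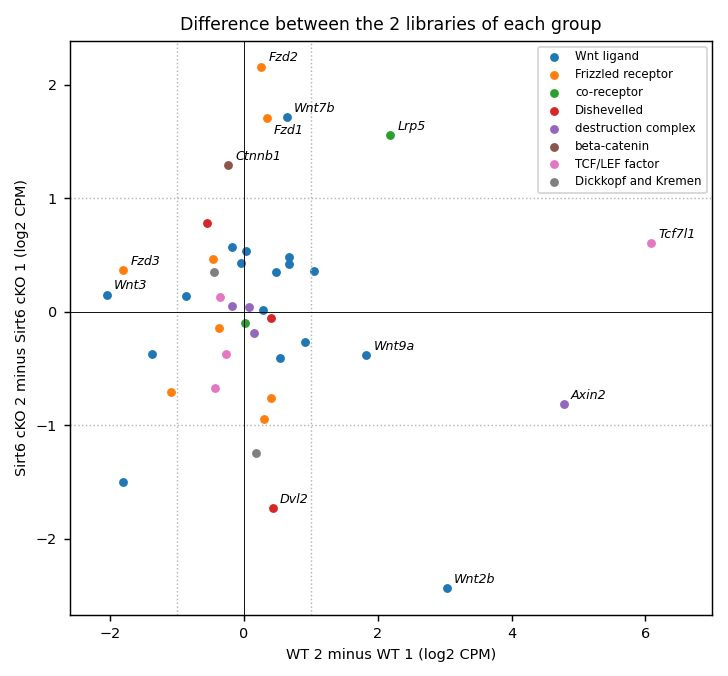
Difference between the 2 libraries of each group in log2 CPM, WT on the horizontal axis and *Sirt6* cKO as labelled on the vertical axis, for the tested members with counts above 0 in all libraries. Each point is 1 member coloured by role, dotted lines mark 2-fold, and *Tcf7l1* and *Axin2* lie far to the right, at 67.8-fold and 27.4-fold between the WT libraries.

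Other genes of the pathway were read from 7 lists that hold 141 genes outside the members, of which 135 were in the table and 131 were tested. At an unadjusted p under 0.05, 14 were called (10.7%, beside 8.58% of all genes), 12 higher and 2 lower, and none passed the adjusted threshold with edgeR. Without *Sirt6* cKO 1, 4 of the 131 were called and 12 of the 14 lost the call, *Edn1* and *Tnfrsf19* keeping it with each library left out, and 9 were called, all higher, when the replicate number was added as a block. The split into higher and lower genes became 7 and 3 under upper quartile normalization, 6 and 3 under library size alone and 8 and 3 with the size factors of DESeq2. The 3 secretion genes and the 13 tested antagonists held no call, and the R-spondin axis, which controls the turnover of Frizzled receptors, held 1 of 9. That gene was *Znrf3*, a ubiquitin ligase that removes Frizzled receptors and is itself a target gene, with counts of 3687 and 2676 (WT) and of 1663 and 1897 (labelled *Sirt6* cKO). Both libraries labelled *Sirt6* cKO were lower for *Znrf3*, at a log2 fold change of -0.78 (SE 0.27, adjusted p = 0.55 by edgeR). The axis had 6 positive and 3 negative values. *Rnf43*, also of this axis, went the other way without overlap, with 1270 and 2006 counts in WT against 2403 and 3231 under the *Sirt6* cKO label. Its log2 fold change was 0.82 (SE 0.33, adjusted p = 0.59 by edgeR). It was not called and is named here after its values were seen. Among 17 genes of β-catenin turnover, *Jup*, which encodes the β-catenin relative plakoglobin, was called higher, with 9111 and 18775 counts in WT against 29970 and 25585 under the *Sirt6* cKO label (log2 fold change 1.04, SE 0.37, adjusted p = 0.55 by edgeR). Among 21 nuclear cofactors, *Tle3*, a co-repressor of TCF factors, was called higher, with counts of 5279 and 6028 (WT) and of 10088 and 7622 (labelled *Sirt6* cKO), at a log2 fold change of 0.71 (SE 0.24, adjusted p = 0.55 by edgeR).

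The planar polarity and Ca2+ branch, in which Frizzled receptors act without β-catenin, held 4 calls among 35 tested genes (11.4%, beside the same 8.58%), 3 higher and 1 lower. *Vangl2*, a core planar polarity protein, had 198 and 150 counts in WT against 665 and 551 under the *Sirt6* cKO label. Its log2 fold change was 1.86 (SE 0.43, adjusted p = 0.54 by edgeR), and its adjusted p was 0.037 by DESeq2. *Celsr1*, an atypical cadherin of the same core, had a log2 fold change of 1.09 (SE 0.43, adjusted p = 0.58 by edgeR), with 1187 and 823 counts in WT against 2666 and 1406 under the *Sirt6* cKO label, and the value was 0.50 without *Sirt6* cKO 1. *Ror2*, a receptor of WNT5A, had 0 and 5 counts in WT, beside 90 and 126 in libraries labelled *Sirt6* cKO (adjusted p = 0.55 by edgeR). With so few counts in WT, its fitted fold change depends on the prior count and is not given. *Plcb2*, a phospholipase of the Ca2+ branch, was lower by a log2 fold change of -0.71 (SE 0.25, adjusted p = 0.55 by edgeR), with counts of 3017 and 3112 (WT) and of 1921 and 1680 (labelled *Sirt6* cKO). *Plcb2* also belongs to the taste cascade of tuft cells, a minor thymic epithelial type. The 10 tuft markers in the table summed to 657 and 767 TPM in WT and to 315 and 301 TPM in the libraries labelled *Sirt6* cKO. Of these, 7 of 10 were called lower, beside 3.32% of all genes, and none was at 0. *Dclk1* and *Pou2f3* went the other way, at log2 fold changes of 0.36 and 0.24, and were not called. The part of tuft cells in the result for *Plcb2* was not tested.

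The target genes of β-catenin held 8 calls among 38 tested genes (21.1%, beside 8.58% of all genes), 7 higher and 1 lower, the latter being *Znrf3*. Over the list, log2 fold changes had a median of 0.08, 20 being positive and 18 negative. *Edn1*, which encodes endothelin 1, had counts of 1955 and 1532 (WT) and of 3485 and 4814 (labelled *Sirt6* cKO). Its groups were well apart, with a log2 fold change of 1.3 (SE 0.27, adjusted p = 0.54 by edgeR) and an adjusted p of 0.0041 by DESeq2. *Tnfrsf19*, a TNF receptor family member also called Troy, had 1000 and 520 counts in WT against 2348 and 2298 under the *Sirt6* cKO label. Its log2 fold change was 1.67 (SE 0.39, adjusted p = 0.54 by edgeR), and its adjusted p was 0.0098 by DESeq2. *Nkd2* had 2270 and 2434 counts in WT against 3325 and 3684 under the *Sirt6* cKO label, and *Met* had 731 and 1048 against 3495 and 1339. *Nkd2*, an inhibitor of Dishevelled, and *Met*, the receptor of hepatocyte growth factor, had log2 fold changes of 0.63 (SE 0.23) and 1.51 (SE 0.55), each with an adjusted p = 0.55 by edgeR. The value of *Met* was 0.60 without *Sirt6* cKO 1. *Jun* and *Sox9*, also called higher, fall outside the rule for named genes and are named here after their values were seen, with log2 fold changes of 0.38 and 0.43. These genes are regulated by other pathways too. The most used target, *Axin2*, gave no direction, as described above.

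**Figure D5:**
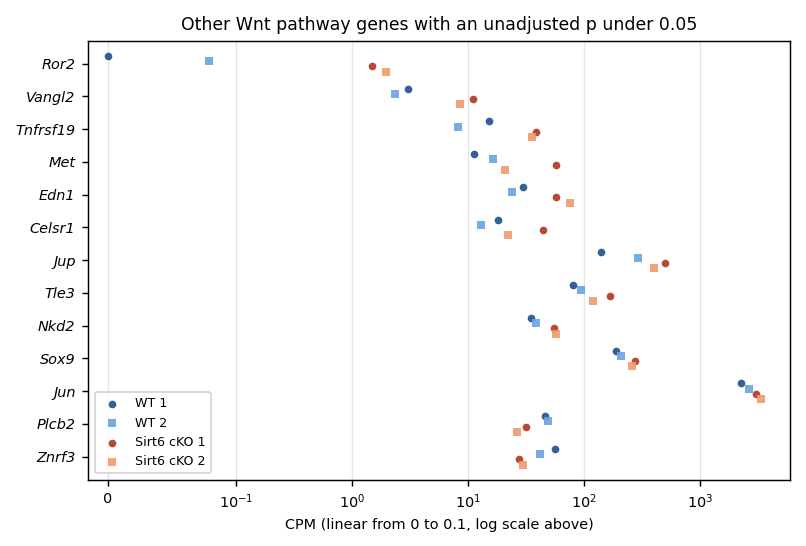
CPM of 13 of the 14 pathway genes outside the members with an unadjusted p under 0.05 by edgeR (horizontal axis, linear from 0 to 0.1 and logarithmic above), ordered by log2 fold change, 1 point per library. In 11 of them both libraries labelled *Sirt6* cKO (red) lie to the right of both WT libraries (blue), and in *Plcb2* and *Znrf3* they lie to the left.

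The promoters of *Tnfrsf19* and *Ror2* are shown because each holds 1 of the motifs searched. They cover the same window around the RefSeq start in GRCm38.p6, at chr14:61037938-61038237 (minus strand) for *Tnfrsf19* and chr13:53286075-53286374 (minus strand) for *Ror2*. Capitals mark a TCF/LEF core motif on its reverse strand, 202 bases before the start, in *Tnfrsf19* and an AP-1 motif (TGACTCA, here on its reverse strand), 90 bases before the start, in *Ror2*.
Tnfrsf19: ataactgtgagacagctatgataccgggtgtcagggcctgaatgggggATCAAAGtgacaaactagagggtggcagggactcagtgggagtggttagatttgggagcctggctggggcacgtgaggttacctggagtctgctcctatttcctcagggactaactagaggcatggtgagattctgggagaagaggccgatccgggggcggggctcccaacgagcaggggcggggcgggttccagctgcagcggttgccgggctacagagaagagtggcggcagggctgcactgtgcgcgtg
Ror2: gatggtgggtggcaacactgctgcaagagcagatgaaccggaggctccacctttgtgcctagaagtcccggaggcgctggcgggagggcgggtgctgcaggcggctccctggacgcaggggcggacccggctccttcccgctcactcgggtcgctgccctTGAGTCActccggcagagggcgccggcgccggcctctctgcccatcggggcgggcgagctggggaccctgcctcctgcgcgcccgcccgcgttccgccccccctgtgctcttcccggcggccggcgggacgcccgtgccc
The AP-1 motif occurred in 5.2% of all promoters of this length and in 2 of the 40 member promoters (*Dvl2* and *Wnt5b*). The motifs were not counted over the other called pathway genes, so these promoters, picked for a match, give no share. A match of letters does not show that a factor binds there.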

How the data were processed

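RNA-seq was performed by the authors on sorted mTECs in 4 libraries, 2 per group. Per the labels' processing notes and the study's methods, reads were aligned to mm10 with HISAT2 2.1.0 and quantified with StringTie 1.3.3. The authors deposited whole-number counts for 23337 gene symbols without normalization, and 1 table of TPM values per library. A line in each TPM table that names no gene and holds the column total was left out. Between 52.9% and 53.9% of the counts above 0 were even, so a count was not taken as exactly 1 read. The annotation and any use of strand in counting are not given in the sources used here.

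Counts were tested with edgeR 4.0.16 (TMM, filterByExpr with a minimum count of 10 and minimum total of 15, glmQLFit and glmQLFTest) in R 4.3.3 over 18547 genes, with Benjamini-Hochberg adjustment over all of them. The biological coefficient of variation was 0.557. The members and lists were chosen with earlier results of these data known. The text names, with all counts, the members with p under 0.05, the most abundant of each role and those with the largest fitted changes, and up to 4 genes per direction of each pathway list. Of the genes counted in the pathway lists, 1 is not reported here. Alternatives were DESeq2 1.42.0, other filters and scalings, limma 3.58.1 on log2(TPM + 1) and log2(TPM + 0.1), the replicate number as a block, and each library left out in turn. The procedure was tested on simulated counts. Positions came from the GENCODE M21 annotation of GRCm38, which is mm10, and promoters from RefSeq on GRCm38.p6. The remaining marker lists summed, over the 4 libraries, to 216 to 272 TPM for B cells, 641 to 769 for fibroblasts, 77.0 to 101 for endothelial cells and 2043 to 2470 for cTECs.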

Additional observations from a re-analysis of the deposited data

How the results depend on the processing

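The number of members called at an unadjusted p stayed between 2 and 4 in edgeR and DESeq2 fits, including each fit with a library left out, and with limma was 5 for log2(TPM + 1) and 6 for log2(TPM + 0.1). No member passed the adjusted threshold under any alternative. *Wnt9b* and *Fzd5* remained called under all filters, scalings and tools. The count of all genes called is not given here for the limma fits, so the 5 and 6 members called there are not set against a background. The same holds for the pathway genes counted with limma below. Over all genes, 354 passed the adjusted threshold with DESeq2, 2 with the filter of TPM over 0.1, and 0 with log2(TPM + 0.1) and with each library left out, against 1. At the unadjusted p they numbered 726 without *Sirt6* cKO 1 and 1765 without WT 1. The 14 other pathway genes called became 9 under library size alone, 9 on log2(TPM + 1), 6 on log2(TPM + 0.1), and 4 to 19 with a library left out. The median log2 fold change of members moved from -0.035 to 0.062 under the TPM filter, -0.11 under upper quartile normalization, -0.13 under library size alone and 0.041 on log2(TPM + 0.1), and ranged from -0.14 to 0.10 with a library left out. The TPM filter kept 39 members and left out *Axin2*, *Fzd2*, *Fzd9*, *Wnt8a* and *Wnt16*, all with negative log2 fold changes above, so its median covers a smaller set. The median of all genes moved to -0.086 and -0.093 under upper quartile normalization and library size alone. The causes were not tested.

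Replicate numbers were shared between groups, and the sample labels do not say whether same-numbered libraries were processed together. Their deviations from the group means had r = -0.0544 across 18547 genes, which are not independent replicates. A correlation over all genes cannot exclude a pairing that affected some of them. With the replicate block, 2 members were called, *Fzd5* and *Wnt9b*, with 9 other pathway genes, 1146 genes at the unadjusted and 0 at the adjusted threshold and a member median of 0.053, and the log2 fold changes of *Axin2*, *Lrp5* and *Wnt6* reversed to 0.38, 0.0065 and 0.031.

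Other small changes reversed too. *Wnt10a* was at -0.011 under upper quartile normalization and -0.025 under library size alone, and *Wnt7a* at -0.077 and -0.063. *Axin2* was at 0.075 on log2(TPM + 0.1), and *Wnt6* was at 0.017 with a pseudocount of 1 and at 0.022 with 0.1. With a library left out, 22 members reversed at least once. Their ranges were -1.91 to 2.88 for *Axin2*, -0.94 to 0.39 for *Ctnnb1*, -0.18 to 0.64 for *Dvl1*, -0.49 to 1.21 for *Dvl2*, -0.065 to 0.37 for *Dvl3*, -1.56 to 0.19 for *Fzd1*, -0.0019 to 0.91 for *Fzd10*, -0.10 to 0.24 for *Lef1*, -1.18 to 1.3 for *Lrp5*, -0.56 to 0.078 for *Tcf7*, -0.49 to 5.61 for *Tcf7l1* and -0.19 to 0.15 for *Tcf7l2*. For the ligands they were -0.18 to 0.33 for *Wnt10a*, -0.41 to 0.29 for *Wnt10b*, -0.59 to 0.24 for *Wnt11*, -6.90 to 5.87 for *Wnt16*, -0.024 to 0.58 for *Wnt3a*, -0.50 to 0.57 for *Wnt6*, -0.91 to 1.16 for *Wnt7a*, -0.66 to 1.09 for *Wnt7b*, -7.72 to 5.80 for *Wnt8a* and -1.15 to 0.71 for *Wnt9a*. In these fits the lone library was assumed to vary like the other group. Calls were gained by *Wnt3* without WT 1, by *Tcf7l1* and *Wnt2b* without WT 2, by *Dkk3* and *Fzd6* without *Sirt6* cKO 1, and by *Ctnnb1*, *Fzd1* and *Fzd9* without *Sirt6* cKO 2.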
